A study of Mus musculus with 41 samples.

Results

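All 14738 Foxa2 peaks of rib chondrocytes were set against all 14937 Jun peaks of calvarial osteoblasts, together 29675 of the 155773 peaks in the 8 peak lists of the series. The members were chosen by list alone. A peak counted as listed for both factors when it shared 1 bp or more with the other list, and as private when it did not. Both precipitations used cells of wild-type C57BL/6 mice at postnatal day 1, with 1 library each. The rib cells were freed with pronase and collagenase, and the calvarial cells came from frontal and rostral parietal bone digested with collagenase and dispase. The labels call them chondrocytes and osteoblasts. Peak lists hold no expression values, so these cell types could not be checked against marker genes. Whether animals were pooled is not stated. The other 6 lists played no part in choosing the members and served as further readouts. They were FLAG ChIP-seq of tagged Runx2 in the same kinds of rib and calvarial cells, taken from Runx2-BioFL/+ knock-in C57BL/6 mice at the same age (2 libraries and 1 list each), and the same FLAG precipitation from 3T3 fibroblasts overexpressing tagged Runx2 or GFP, at day 0 and after 3 days in osteogenic medium with ascorbic acid phosphate, β-glycerophosphate and rhBMP-2 (1 library and 1 list each).

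Foxa2 is a forkhead pioneer factor that can bind its motif in closed chromatin, and in cartilage it is known for its part in chondrocyte hypertrophy. Jun is a basic leucine zipper protein that pairs with Fos or Jun family members to form AP-1, a factor found at enhancers of many cell types, fibroblasts and osteoblasts among them. Runx2 is required for osteoblast formation and also acts in maturing chondrocytes. Foxa2 was mapped in one cell type and Jun in the other. A site listed for both was therefore not shown to hold both proteins in the same cell, and the factor cannot be told apart from the cell type or from the skeletal site, rib or calvaria.

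The lists were of nearly equal size and similar peak width, with a median of 120 bp for Foxa2 (quartiles 98 to 153 bp) and 134 bp for Jun (98 to 194 bp). Each group had 1 list, so no value below has an error between animals. Intervals are 95% intervals that cover counting error alone, and close peaks are not independent observations. The read depth behind the lists is unknown here. A pair of Foxa2 clusters stood apart from the rest. A stretch of 37069 bp on chromosome 9 (mm9, 3001163 to 3038231) held 77 Foxa2 peaks, and 52559 bp on chromosome Y (2849135 to 2901693) held 31. None of these 108 peaks overlapped any of the other 7 lists, and the 200-kb tiles around them held no peak of those lists. Values they enter are given without them too where they weigh on the value. Among the lists of 3T3 cells, a pair has crossed names: in the labels, the list bearing the name of Runx2 day 0 belongs to GFP day 3, and the reverse. They are quoted here by their own names, and which of them came from cells with tagged Runx2 cannot be told apart.

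The first question was how many sites the 2 factors had in common. Few sites were listed for both: 275 of 14738 Foxa2 peaks overlapped a Jun peak (1.87%, 1.66 to 2.10%), and 274 of 14937 Jun peaks overlapped a Foxa2 peak (1.83%, 1.63 to 2.06%). They formed 275 overlapping pairs at 274 separate sites. This left 14463 private Foxa2 peaks and 14663 private Jun peaks. Other lists overlapped Foxa2 or Jun to very different degrees. Foxa2 lay at 18.3% of chondrocyte Runx2 peaks (17.7 to 18.9%) and at 4.93% of osteoblast Runx2 peaks (4.53 to 5.37%). Jun lay at 17.8% of chondrocyte Runx2 peaks (17.2 to 18.4%) and at 25.3% of osteoblast Runx2 peaks (24.5 to 26.2%).

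Where peaks of the factors overlapped, their centres were close together, which the overlap rule and the narrow peaks largely require. The overlap had a median of 82 bp (quartiles 46 to 102.5 bp), and the centres were a median of 47 bp apart (24 to 88 bp). In 150 of the 275 pairs (54.5%) the centres were within 50 bp, and in 87 (31.6%) the shorter peak lay wholly inside the longer one. Near the edge of the overlap rule, 9 pairs overlapped by 10 bp or less, and 18 Foxa2 peaks missed a Jun peak by 10 bp or less. A further 644 Foxa2 peaks and 691 Jun peaks had an edge within 1 kb of the other factor without overlapping it. Widths of both classes were alike, with medians of 119 bp for Foxa2 peaks with Jun and 120 bp for those without, and of 129 bp and 134 bp on the Jun side. The widest private peaks were under 0.5 kb in both lists. For Foxa2 they lay on chromosome 16 (23993409 to 23993905, 497 bp), chromosome 18 (3004595 to 3005091) and chromosome 1 (43992245 to 43992740), and 1 of these 3 met another list, that of 3T3 Runx2 at day 3. For Jun they lay on chromosome 9 (102527918 to 102528415, 498 bp), chromosome 15 (36722325 to 36722822) and chromosome 19 (3575785 to 3576282). These met 4, 1 and 2 other lists, with osteoblast Runx2 at the first and chondrocyte Runx2 at none.

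Sites listed for both factors were spread thinly over the genome. The 275 Foxa2 peaks with Jun fell in 255 tiles of 200 kb. The tile with the most of them, chromosome 19 (5800001 to 6000000), held 4 among 21 Foxa2 and 23 Jun peaks, with 11 chondrocyte Runx2 peaks, 6 osteoblast Runx2 peaks and 57 peaks of 3T3 Runx2 at day 3. The next, chromosome 4 (62800001 to 63000000), held 3 among 13 Foxa2 and 8 Jun peaks, with 13 chondrocyte and 3 osteoblast Runx2 peaks. Another 15 tiles held 2 each, of which the first 3 in chromosome order lay on chromosome 1 (172600001 to 172800000), chromosome 2 (32000001 to 32200000) and chromosome 3 (145400001 to 145600000). Per autosome, the share of Foxa2 peaks with Jun ranged from 0.686% on chromosome 13 (5 of 729 peaks) to 3.16% on chromosome 18 (18 of 569). Chromosome X had 211 Foxa2 and 122 Jun peaks and no overlap between them.

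Position in the files followed the overlap, although what ordered the files is unknown here. Of the 10 equal parts of the Foxa2 file, the first had 107 of 1474 peaks also listed for Jun (7.26%, 6.04 to 8.70%) and the last 5 of 1473 (0.339%, 0.145 to 0.792%). Overlap of Foxa2 peaks with chondrocyte Runx2 fell along the same file from 47.8% to 7.06%. The Jun file showed a smaller drop, from 3.95% of its first part with Foxa2 (3.07 to 5.06%) to between 1.27% and 2.01% in each of the others. Along the Jun file the share in the list named for GFP day 3 went the other way, from 12.7% in the first part to 27.4% in the last.

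The second question was whether sites listed for both factors were Runx2 sites. Chondrocyte Runx2 lay at about 1 in 2 of them, against fewer than 1 in 5 private peaks of either factor. Chondrocyte Runx2 overlapped 137 of 275 Foxa2 peaks with Jun (49.8%, 44.0 to 55.7%) and 2700 of 14463 private Foxa2 peaks (18.7%, 18.0 to 19.3%), where all Foxa2 peaks gave 19.2%. The odds ratio was 4.32 (3.38 to 5.54; Fisher's exact test, adjusted p = 2.13e-30), and on each of the 19 chromosomes that held both classes the Foxa2 peaks with Jun had the larger share. Seen from the Jun side, the same Runx2 list overlapped 147 of 274 Jun peaks with Foxa2 (53.6%, 47.7 to 59.5%) and 2638 of 14663 private Jun peaks (18.0%, 17.4 to 18.6%), where all Jun peaks gave 18.6%. The odds ratio was 5.28 (4.12 to 6.77; Fisher's exact test, adjusted p = 8.60e-39), again higher on 19 of 19 chromosomes. Compared within 10 equal parts of the file order, the odds ratio was 2.36 (1.84 to 3.04) for Foxa2 peaks and 4.88 (3.83 to 6.22) for Jun peaks, and in the first 50% of the files it was 2.71 (1.84 to 3.97) for Foxa2 peaks.

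Osteoblast Runx2 divided the classes differently. It overlapped 68 of 275 Foxa2 peaks with Jun (24.7%, 20 to 30.2%) and 445 of 14463 private Foxa2 peaks (3.08%, 2.81 to 3.37%), where all Foxa2 peaks gave 3.48%. The odds ratio was 10.3 (7.62 to 13.9; Fisher's exact test, adjusted p = 1.31e-38) and 5.19 (3.83 to 7.02) within parts of the file order, and Foxa2 peaks with Jun had the larger share on 18 of 19 chromosomes. Among Jun peaks the step was smaller, with 72 of 274 peaks with Foxa2 (26.3%, 21.4 to 31.8%) against 2561 of 14663 private peaks (17.5%, 16.9 to 18.1%), where all Jun peaks gave 17.6%. That odds ratio was 1.68 (1.26 to 2.22; Fisher's exact test, adjusted p = 0.000376), and the share was higher with Foxa2 on 14 of 19 chromosomes. In the wider 50% of each list it was 1.21 (0.495 to 2.56) and did not pass the exact test (p = 0.544). In the first 50% of the files its interval, 0.977 to 2.53, took in equal odds.

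**Figure D1:**
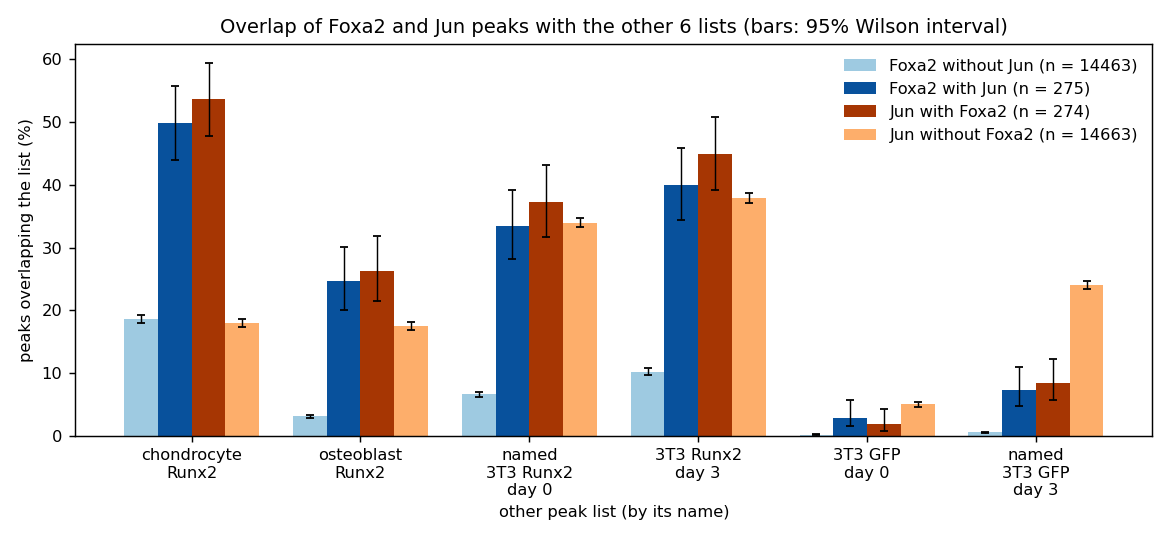
Percent of peaks that overlapped each of the other 6 lists, for private Foxa2 peaks, Foxa2 peaks with Jun, Jun peaks with Foxa2 and private Jun peaks; error bars are 95% Wilson intervals. Sites of both factors stand at 49.8% and 53.6% in chondrocyte Runx2, while private Jun peaks lead in the list named for GFP day 3 at 24.0%.

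Taking both Runx2 lists at once, sites of both factors had a larger share with Runx2 of both cell types than private peaks had. These joint classes were not tested. Of the Foxa2 peaks with Jun, 57 of 275 (20.7%, 16.4 to 25.9%) overlapped Runx2 in both lists, 80 (29.1%) the chondrocyte list without the osteoblast list, 11 (4.0%) the osteoblast list without the chondrocyte list, and 127 (46.2%) neither. Private Foxa2 peaks gave 2.29% for both lists, 16.4% for chondrocytes without osteoblasts, 0.788% for osteoblasts without chondrocytes and 80.5% for neither. Private Jun peaks with Runx2 were split almost evenly, with 8.96% in both lists, 9.03% in chondrocytes without osteoblasts and 8.50% in osteoblasts without chondrocytes, and 73.5% were in neither. Jun peaks with Foxa2 gave 21.9%, 31.8%, 4.38% and 42.0% for the same classes.

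Private peaks of the 2 factors met chondrocyte Runx2 at similar rates and the remaining lists at very different ones. In chondrocyte Runx2 the shares were 18.7% for private Foxa2 and 18.0% for private Jun. The odds ratio of 1.05 (0.986 to 1.11) did not pass the exact test (adjusted p = 0.145), and Foxa2 was higher on 13 of 21 chromosomes. The other lists all held the larger share of Jun. In osteoblast Runx2 the shares were 3.08% and 17.5%, an odds ratio of 0.150 (0.135 to 0.166), with the Foxa2 share lower on 20 of 21 chromosomes. In 3T3 Runx2 at day 3 they were 10.2% (9.75 to 10.7%) and 37.9% (37.1 to 38.7%), an odds ratio of 0.187 (0.175 to 0.199). For both of these odds ratios Fisher's exact test gave the smallest p kept, 1e-300.

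The fibroblast and GFP lists also differed by class, and here the sides of the comparison parted. Foxa2 peaks with Jun were found more often than private Foxa2 peaks in each of the 4 lists of 3T3 cells. At day 3 of 3T3 Runx2, which took in 10.8% of all Foxa2 peaks, the shares were 110 of 275 (40%, 34.4 to 45.9%) and 10.2% (odds ratio 5.85, 4.52 to 7.53). In the list named for Runx2 day 0, with 7.08% of all Foxa2 peaks, they were 33.5% (28.1 to 39.2%) and 6.58% (odds ratio 7.13, 5.44 to 9.30). The lists named for GFP, by name a control without tagged Runx2, differed in the same direction. The list named for GFP day 3 overlapped 20 of 275 Foxa2 peaks with Jun (7.27%, 4.76 to 10.97%) and 78 of 14463 private ones (0.539%, 0.432 to 0.673%), where all Foxa2 peaks gave 0.665%. The odds ratio was 14.5 (8.24 to 24.3), with a higher share on 11 of 19 chromosomes. At GFP day 0 there were 8 of 275 (2.91%, 1.48 to 5.63%) against 25 of 14463 (0.173%, 0.117 to 0.255%), where all Foxa2 peaks gave 0.224%. That odds ratio was 17.3 (6.68 to 40), from few peaks, and the share was higher on 7 and lower on 7 of 19 chromosomes. Each of these 4 differences passed the exact test (largest adjusted p = 1.67e-07).

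Jun peaks with Foxa2 were instead found less often than private Jun peaks in the lists named for GFP. The list named for GFP day 3 overlapped 23 of 274 of them (8.39%, 5.66 to 12.3%) and 3519 of 14663 private Jun peaks (24.0%, 23.3 to 24.7%), where all Jun peaks gave 23.7%. The odds ratio was 0.290 (0.180 to 0.446; Fisher's exact test, adjusted p = 5.22e-11), with a lower share on 18 of 19 chromosomes. GFP day 0 gave 5 of 274 (1.82%, 0.782 to 4.2%) against 733 of 14663 (4.999%, 4.66 to 5.36%), with 4.94% of all Jun peaks. That odds ratio was 0.353 (0.113 to 0.839, Fisher's exact test, adjusted p = 0.0130), from few peaks. The 3T3 Runx2 lists, with 38.0% of all Jun peaks at day 3 and 34.0% in the list named for day 0, separated the Jun classes less. At day 3 the shares were 44.9% (39.1 to 50.8%) and 37.9% (odds ratio 1.34, 1.04 to 1.71; Fisher's exact test, adjusted p = 0.0224). In the list named for Runx2 day 0, with 37.2% and 34.0%, the odds ratio of 1.15 (0.891 to 1.49) did not pass Fisher's exact test (adjusted p = 0.274). The labels give that list to GFP day 3, so a lower GFP share at day 3 depends on the names. With peaks that overlapped a GFP list by name removed, the chondrocyte Runx2 odds ratio was 4.49 (3.46 to 5.84) on the Foxa2 side and 6.33 (4.86 to 8.26) on the Jun side. With the crossed lists exchanged for that removal they were 3.61 (2.60 to 4.98) and 8.27 (5.93 to 11.5).

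For Foxa2 peaks the step in chondrocyte Runx2 lay at the overlap itself and not over the surrounding kilobases. Foxa2 peaks that had a Jun peak centre within 1 kb but did not overlap it met chondrocyte Runx2 in 99 of 562 cases (17.6%, 14.7 to 21.0%), and those 1 to 10 kb away in 19.3% (17.7 to 21.0%). Beyond 100 kb the share was 16.8% (15.7 to 17.9%). Osteoblast Runx2 at Foxa2 peaks declined more gradually, from 24.7% at overlap to 10.1% (7.91 to 12.9%) within 1 kb, 4.14% (3.38 to 5.06%) at 1 to 10 kb and 1.71% (1.37 to 2.14%) beyond 100 kb. Jun peaks without overlap but within 1 kb of a Foxa2 peak met chondrocyte Runx2 in 148 of 599 cases (24.7%, 21.4 to 28.3%), against 16.4% (15.2 to 17.7%) beyond 100 kb. Their share in osteoblast Runx2 was 18.2% (15.3 to 21.5%) within 1 kb and 15.5% (14.3 to 16.8%) beyond 100 kb, and their share in the list named for GFP day 3 was already 22.0% (18.9 to 25.5%) within 1 kb.

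**Figure D2:**
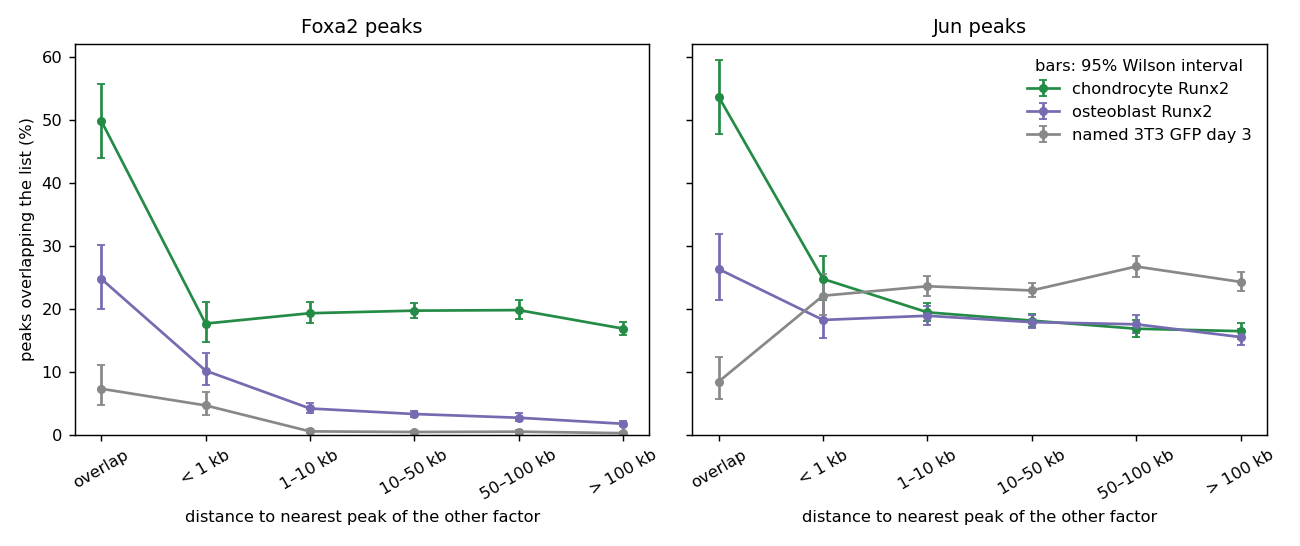
Percent of Foxa2 peaks (left) and Jun peaks (right) that overlapped chondrocyte Runx2, osteoblast Runx2 or the list named for GFP day 3, by distance to the nearest peak of the other factor; error bars are 95% Wilson intervals. The chondrocyte Runx2 share drops from 49.8% at overlap to 17.6% within 1 kb on the left and from 53.6% to 24.7% on the right. Position in the files is not accounted for.

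None of the other 6 lists overlapped 30.5% of Foxa2 peaks with Jun and 74.2% of private Foxa2 peaks. For Jun peaks these shares were 28.5% with Foxa2 and 41.4% without, and they were not tested. Counting lists met at either peak of the pair, 74 of the 275 Foxa2 peaks with Jun (26.9%) had none, and 8 had at least 5 of the 6. The 2 that met all 6 lists, both GFP lists included, lay on chromosome 15. One had Foxa2 from 84659918 to 84660106 and Jun from 84659986 to 84660092, with the Jun peak wholly inside. The other had Foxa2 from 72399073 to 72399172 and Jun from 72399092 to 72399196, with centres 21 bp apart. Of the 6 sites with 5 lists, 4 met Runx2 of both primary cell types, 3T3 Runx2 of both days by name, and GFP day 3 by name. Their Foxa2 peaks lay on chromosome 3 (21834876 to 21835173), chromosome 5 (118915064 to 118915267), chromosome 11 (58977335 to 58977453) and chromosome 16 (30064166 to 30064323). The chromosome 17 site, with Foxa2 from 84582993 to 84583218, met GFP day 0 in place of GFP day 3. The chromosome 2 site, with Foxa2 from 33946225 to 33946317, met every list but the one named for Runx2 day 0. Of the 40 sites with 4 lists, those with the widest Foxa2 peaks met the Runx2 lists and no GFP list, with Foxa2 on chromosome 8 (26435355 to 26435842) and on chromosome 2 (30319549 to 30319809).

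The third question was where one factor gathered without the other. The genome was cut into fixed tiles of 200 kb, of which 9042 held a peak of any list. A tile was called rich in a factor at 8 or more peaks and poor at 0 or 1. By this rule 60 tiles (0.664%) were rich in Foxa2 and poor in Jun, or 58 without the chromosome 9 and Y tiles, and 68 tiles (0.752%) were rich in Jun and poor in Foxa2. With peaks that overlapped a GFP list by name removed, the counts were 69 and 24. Just inside the rule, 25 of the Foxa2-rich tiles held exactly 8 Foxa2 peaks and 31 of the Jun-rich tiles exactly 8 Jun peaks. Just outside it, 26 tiles with 7 Foxa2 peaks and 52 with 7 Jun peaks were equally poor in the other factor. A further 16 tiles were rich in both. The counts chose the tiles and are a description.

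Many tiles held both factors, at rates near those over all tiles with a peak of any list. Tiles without any peak were left out, which raises both background rates. Of 6124 tiles with Foxa2, 3827 (62.5%) also held Jun, against 59.3% of all 9042 tiles. Of the 5364 tiles with Jun, 71.3% also held Foxa2, against 67.7% of all tiles. The counts of the factors correlated weakly over the tiles (Spearman's rho 0.24, n = 9042 tiles). In such sparse counts, over tiles that share gene density and mappability, this is a description only. For comparison, rho was 0.46 between Foxa2 and chondrocyte Runx2, 0.27 between Foxa2 and osteoblast Runx2, 0.49 between Jun and chondrocyte Runx2, and 0.52 between Jun and osteoblast Runx2. With the list named for GFP day 3 it was 0.53 for Jun and 0.15 for Foxa2.

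**Figure D3:**
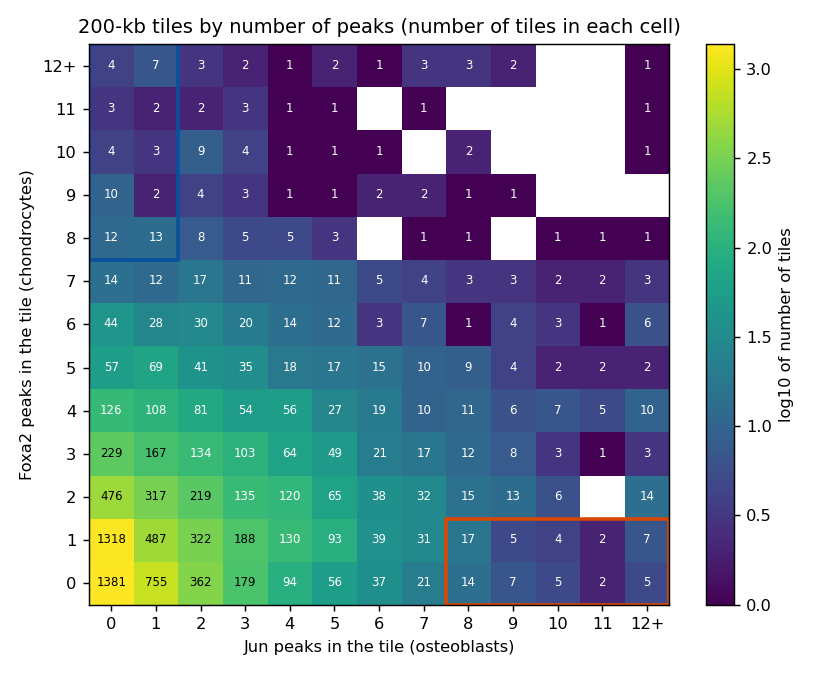
Number of 200-kb tiles by their Foxa2 peaks (vertical axis) and Jun peaks (horizontal axis), with 12 standing for 12 or more and colour on a log scale. The blue frame holds the 60 Foxa2-rich, Jun-poor tiles and the orange frame the 68 Jun-rich, Foxa2-poor tiles.

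Runx2, which played no part in choosing the tiles, was skewed to chondrocytes in the Foxa2-rich ones. They held 277 chondrocyte and 92 osteoblast Runx2 peaks, a ratio of 3.01, against 1.503 over all tiles. Chondrocyte peaks were more numerous in 48 of the 60 tiles, osteoblast peaks in 5, and 7 were equal, of which 2 were the clusters on chromosomes 9 and Y with no Runx2. The Jun-rich tiles held 257 chondrocyte and 264 osteoblast Runx2 peaks, a ratio of 0.973, with chondrocyte peaks ahead in 33 tiles, osteoblast peaks in 28 and 7 equal. Over all 9042 tiles chondrocyte peaks were ahead in 3902 and osteoblast peaks in 1468, and 3672 were equal. The odds ratio between the tile classes was 3.09 (2.29 to 4.19; Fisher's exact test on Runx2 peaks, adjusted p = 1.30e-14), and it was between 2.54 and 4.40 with other tile sizes and limits. No osteoblast Runx2 peak was found in 49.1% of all tiles, in 26 of the 60 Foxa2-rich ones (43.3%, or 24 of 58 without the chromosome 9 and Y tiles) and in 4 of the 68 Jun-rich ones (5.88%).

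The 3T3 lists were denser in Jun-rich tiles. A Jun-rich tile held on average 16.8 peaks of 3T3 Runx2 at day 3 and 8.76 of the list named for GFP day 3, against 5.55 and 1.86 over all tiles with a peak. A Foxa2-rich tile held 6.85 and 0.967 (7.09 and 1.00 without the chromosome 9 and Y clusters). Tiles rich in both factors had higher means of Runx2 than either class in each primary cell type, with 9.25 chondrocyte and 5.31 osteoblast peaks per tile. They also held 14 of the 275 Foxa2 peaks with Jun, while the Foxa2-rich tiles held 4 and the Jun-rich tiles 1. The tile rule largely fixes this contrast, since a tile poor in a factor holds at most 1 of its peaks.

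Apart from the chromosome 9 and Y clusters, the Foxa2-rich, Jun-poor tile with the most Foxa2 peaks lay on chromosome 6 (52000001 to 52200000). It held 17 Foxa2 peaks and 1 Jun peak, 11 chondrocyte and no osteoblast Runx2 peaks, 36 peaks of 3T3 Runx2 at day 3 and 19 of the list named for GFP day 3. Chromosome 7 from 86000001 to 86200000 followed, with 15 Foxa2 peaks, no Jun peak, 21 chondrocyte Runx2 peaks and 4 osteoblast Runx2 peaks. A second tile of chromosome 7 (124600001 to 124800000) held 12 Foxa2, no Jun, 14 chondrocyte and 4 osteoblast Runx2 peaks. Both tiles of chromosome 7 thus had more chondrocyte than osteoblast Runx2 peaks. Their 4 osteoblast peaks each were still above the mean of 1.13 per tile over all tiles and 1.53 over the Foxa2-rich ones. Not every tile leaned to chondrocytes: on chromosome 13 (47200001 to 47400000) there were 14 Foxa2 and 1 Jun peaks with 3 chondrocyte and 5 osteoblast Runx2 peaks. The same chromosome from 63000001 to 63200000 held 11 Foxa2 and no Jun peaks with 4 and 6. A tile of chromosome 13 (24200001 to 24400000) held 11 Foxa2 peaks with 7 chondrocyte and 2 osteoblast Runx2 peaks. Another of chromosome 16 (93200001 to 93400000) held 11 Foxa2 peaks with 4 and 4, and one of chromosome 2 (6000001 to 6200000) held 12 with 7 and 3.

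Among Jun-rich tiles 2 tied for the widest difference. Chromosome 10 (79600001 to 79800000) held 19 Jun and no Foxa2 peaks, with 5 chondrocyte and 4 osteoblast Runx2 peaks and 25 peaks of the list named for GFP day 3. Chromosome 7 from 19800001 to 20000000, the other of the pair, held 20 Jun peaks and 1 Foxa2 peak with 9 chondrocyte and 10 osteoblast Runx2 peaks. Chromosome 4 from 125800001 to 126000000 held 14 Jun peaks and 1 Foxa2 peak with 11 and 13. Chromosome 11 from 48600001 to 48800000 was the most uneven for Runx2 among the 10, with 12 Jun and no Foxa2 peaks beside 9 chondrocyte peaks and 1 osteoblast peak. The remaining 6 held 13 to 15 Jun peaks each. A pair lay on chromosome 11 (74800001 to 75000000 and 100800001 to 101000000), and single tiles lay on chromosome 17 (34200001 to 34400000), chromosome 13 (23600001 to 23800000), chromosome 16 (20600001 to 20800000) and chromosome 7 (16800001 to 17000000). Each of these 10 tiles held at least 6 peaks of the list named for GFP day 3. Genes in the tiles are not named, for want of mm9 gene models.

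**Figure D4:**
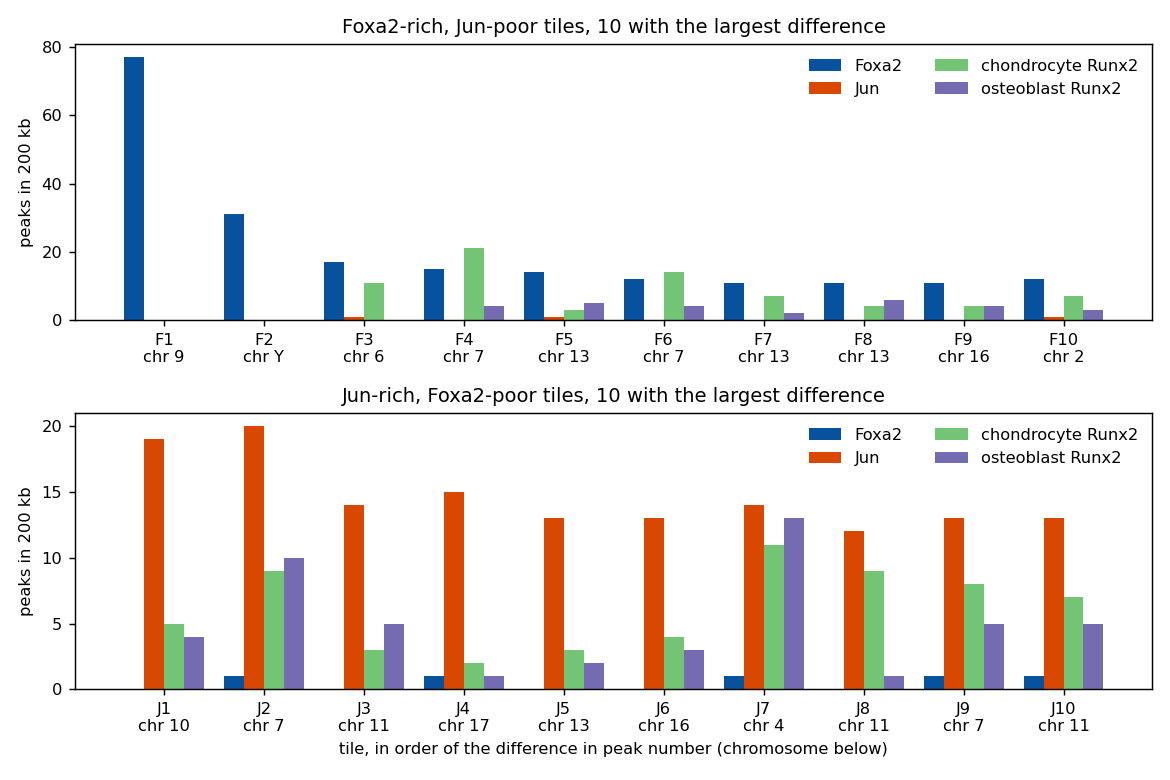
Peaks of Foxa2, Jun, chondrocyte Runx2 and osteoblast Runx2 in the 10 Foxa2-rich tiles (F1 to F10) and 10 Jun-rich tiles (J1 to J10) with the largest difference in peak number. F1 and F2, on chromosomes 9 and Y with 77 and 31 Foxa2 peaks, hold no Runx2, while 6 of the other 8 Foxa2-rich tiles have at least as many chondrocyte as osteoblast Runx2 peaks. Most of all 9042 tiles do so too: 3902 have more chondrocyte peaks, 3672 equal numbers and 1468 more osteoblast peaks.

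The last question was how each factor clustered along the chromosomes. Jun peaks sat closer to one another than Foxa2 peaks did. The median distance from a Jun peak to the next Jun peak was 10425 bp (quartiles 795 to 46283 bp), and from a Foxa2 peak to the next Foxa2 peak 22649 bp (23059 bp without the chromosome 9 and Y tiles). Within 1 kb of another peak of the same list lay 27.9% of Jun peaks (27.2 to 28.6%) and 12.55% of Foxa2 peaks (12.02 to 13.1%, or 11.97% without those tiles), and within 10 kb 49.4% (48.6 to 50.2%) and 33.9% (33.2 to 34.7%, or 33.4% without them). With peaks under 1 kb apart counted as 1, the 10-kb shares were 28.4% for Jun and 24.6% for Foxa2, which lie closer together.

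The distance between the factors was larger. A Foxa2 peak lay a median of 46306.5 bp from the nearest Jun peak, and a Jun peak 35603 bp from the nearest Foxa2 peak. Counted as neighbours per 1000 peaks and per kb of flanking sequence on either side, Jun around Jun was densest at 0.25 to 0.5 kb (306) and fell to 13.2 at 100 to 200 kb. Foxa2 around Foxa2 went from 122 to 10.8, or from 108 to 10.8 without the chromosome 9 and Y tiles. Jun around Foxa2 began at 51.6 within 0.25 kb, was 25.6 at 0.25 to 0.5 kb, and changed little from 5 to 10 kb (12.7) to 100 to 200 kb (10.0). Between 5 and 10 kb the Foxa2 density was 28.9, and 20.2 without those tiles.

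**Figure D5:**
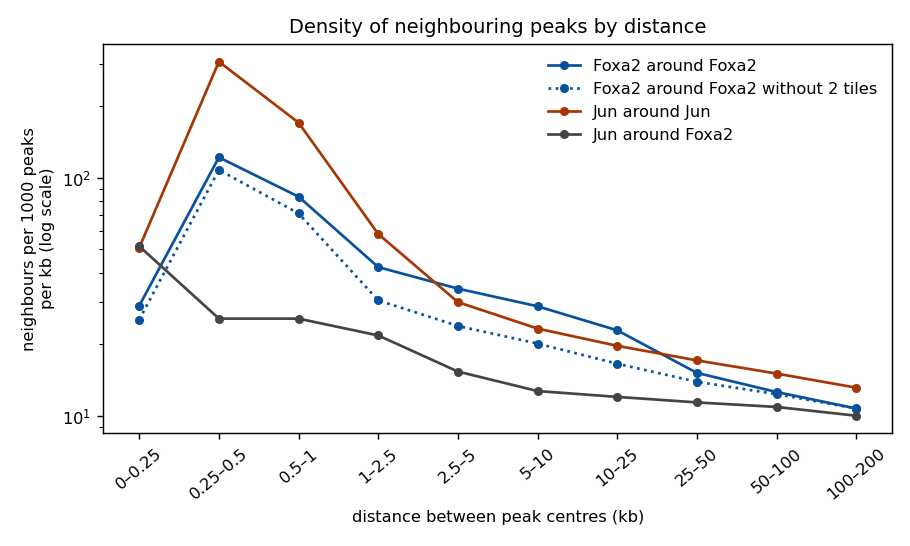
Neighbouring peaks per 1000 peaks and per kb (log scale) by distance between peak centres, for each factor around itself and for Jun around Foxa2; the dotted line leaves out the chromosome 9 and Y tiles. Jun around Jun peaks at 306 and Foxa2 around Foxa2 at 122, both at 0.25 to 0.5 kb, while Jun around Foxa2 starts at 51.6 and levels off near 10.

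Joined into runs by the stitching distance customary for super-enhancers, taken between centres, Foxa2 formed 86 runs of 5 or more peaks (658 peaks, 4.46% of the list, or 84 runs with 550 peaks, 3.76%, without the chromosome 9 and Y tiles) and Jun 188 (1169 peaks, 7.83%). No peak of the other factor lay inside 58 of the 86 Foxa2 runs (67.4%, or 56 of 84 without those tiles) and 113 of the 188 Jun runs (60.1%). Over all peaks, only 20.4% of Foxa2 peaks had a Jun peak within 10 kb, and 24.1% of Jun peaks a Foxa2 peak. The runs spanned medians of 18140.5 bp for Foxa2 and 14452 bp for Jun. Runs without the other factor are therefore not a sign of separate clustering, and no background of equal span was drawn. After the chromosome 9 and Y clusters, the longest Foxa2 run lay on chromosome 19 (5796592 to 5847732), with 21 Foxa2 peaks and 16 Jun peaks. The next was on chromosome 6 (52116898 to 52167320), with 16 Foxa2 peaks, no Jun peak and 8 chondrocyte Runx2 peaks. A run on chromosome 2 (34608922 to 34637696) held 14 Foxa2 and 2 Jun peaks and no Runx2 peak of either primary cell type. The longest Jun run, of 16 peaks, lay on chromosome 12 (86796282 to 86838942) and held 4 Foxa2 peaks. It was followed by runs of 15 Jun peaks on chromosome 10 (79604103 to 79630704), 13 on chromosome 8 (86716042 to 86734555), 13 on chromosome 11 (94775108 to 94803654) and 12 on chromosome 3 (88292487 to 88335708). Of these 4, the run on chromosome 11 held 1 Foxa2 peak and the others held none.

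Overlap with other lists varied with the size of the run for both factors. Chondrocyte Runx2 met 17.0% of solitary Foxa2 peaks (16.3 to 17.8%), 23.1% of those in runs of 2 (21.6 to 24.6%) and 24.2% in runs of 3 or 4 (22.3 to 26.3%). In runs of 5 or more it was 18.7% (15.9 to 21.9%), and 22.4% (19.1 to 26.0%) without the chromosome 9 and Y tiles. For Jun the chondrocyte Runx2 shares ranged from 16.4% in runs of 3 or 4 (15.1 to 17.8%) to 19.3% in solitary peaks (18.4 to 20.2%). In 3T3 Runx2 at day 3 the Jun shares were 35.1% of solitary peaks (34.0 to 36.2%), 40.2% in runs of 2 (38.7 to 41.8%) and 41.1% in runs of 5 or more (38.4 to 43.99%). In the list named for GFP day 3 they were 19.5% of solitary peaks (18.6 to 20.5%) and 28.6% of those in runs of 2 (27.2 to 30.0%). Larger runs had no higher share, with 26.8% in runs of 3 or 4 and 25.7% in runs of 5 or more. No test was made of these shares or between the factors.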

How the data were processed

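The authors deposited 1 peak list per ChIP group with 3 columns, chromosome, start and end, and no score. Per the submitters' processing notes the build was mm9 and the tools included Bowtie and DiffBind, whose roles are not stated. Peak caller, threshold, control and depth are not given in the sources used here, and ATAC-seq, input and IgG libraries were not analysed here. Coordinates are 1-based mm9. No mm9 genome or annotation was at hand, so genes, motifs and sequences were not examined.

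Overlap needed 1 bp. Shares have Wilson intervals. Classes of peaks, and Runx2 peaks in tiles, were compared by Fisher's exact test (two-sided, conditional odds ratio). P-values were kept at 1e-300 or above and adjusted over 19 tests (Benjamini-Hochberg), of which 17 were under 0.05. Tiles and runs place a peak by its centre. Named tiles were the 10 per class with the largest difference in peaks, named runs the 5 longest per list, and named sites the 10 meeting most lists, with 5 tiles of most shared sites and the 3 widest private peaks per list. Mantel-Haenszel odds ratios over 10 parts of the file order, removal of the chromosome 9 and Y tiles, merging of overlapping peaks and exchange of the crossed lists were chosen after seeing the data. Members, classes and tests were chosen with earlier results of these data known. Overlaps were checked with bedtools 2.31.1 (0 of 28 pairs differed), and overlap and test code on simulated data. Scripts ran under Python 3.11.15 with SciPy 1.17.1, statsmodels 0.14.6, NumPy 2.4.6, pandas 2.3.3 and matplotlib 3.10.9.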

Additional observations from a re-analysis of the deposited data

How the results depend on the processing

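No paired analysis was possible because each group had 1 peak list. Of 104 alternative values for 11 results, 68 kept their direction and call or stayed within the interval, 35 moved, 1 lost its call and 0 reversed. The overlap share of Foxa2 and Jun peaks was 1.42% and 1.39% with 50% overlap of the shorter peak, 2.56% and 2.51% with centres within 250 bp, 6.24% and 6.46% at up to 1 kb apart, and 0.869% and 0.857% in the wider 50% of each list. Without GFP-overlapping peaks it was 2.20% for Jun by list names and 1.21% for Foxa2 with the crossed lists exchanged. The osteoblast Runx2 odds ratio of Jun peaks was 1.21 in the wider 50%, where few peaks are shared.

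Foxa2-rich and Jun-rich tiles numbered 158 and 196 at 6 or more peaks, 23 and 25 at 10 or more, 33 and 33 with none of the other factor, 32 and 44 at 100 kb, and 31 and 26 with peaks under 1 kb apart counted once. Removal of GFP-overlapping peaks gave 69 and 24. The Runx2 odds ratio between tile classes passed the exact test in each setting.

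The share of Foxa2 and Jun peaks near their own kind was 24.8% and 41.5% within 5 kb, 37.9% and 52.4% within the stitching distance, and 67.9% and 76.5% within 50 kb. At 10 kb it was 24.6% and 28.4% with close peaks counted once, 22.1% and 34.0% in the wider 50%, and 22.9% and 32.3% in the first 50% of the file. For Jun it was 39.4% without GFP-overlapping peaks and 48.5% with overlapping peaks merged. Shorter lists hold fewer neighbours by construction. Unknown depth limits any reading of list sizes.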
